A study of Mus musculus with 8 samples.

Results

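The 10 immediate early genes Fos, Fosb, Jun, Junb, Egr1, Egr2, Ier2, Ier3, Dusp1 and Myc were followed in mouse 3T3-L1 adipocytes, across all 4 groups of an RNA-seq experiment. They were chosen by name, as listed immediate early and growth-factor response genes, with earlier results of these data known. All 10 were found by symbol among the 43629 genes of the deposited table. All 10 also passed the filter on low counts. 3T3-L1 is a single mouse pre-adipocyte line that becomes fat-laden adipocytes in culture, and treatment began at day 8 of differentiation and lasted 24 h. The groups were untreated cells, cells given A66, cells given palmitate and cells given both, with 2 cultures and 2 libraries in each. A66 selectively inhibits the p110α isoform of PI3K, the lipid kinase that relays insulin signals, and palmitate is a saturated fatty acid, given here bound to albumin. By the labels A66 was used at 2 μM and palmitate at 0.5 mM, with untreated cells as controls, whereas the study's methods state 1 μM A66 and a DMSO vehicle. No group carried a genetic change, no transcript reports directly that p110α was blocked, and every direction below depends on the sample labels. The sources do not say whether the 2 cultures of a group were differentiated separately, so p-values measure only the spread between these cultures.

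Immediate early genes are switched on within minutes of a growth factor, serum or stress signal, without new protein synthesis, through kinases of the ERK, JNK and p38 families acting on factors such as SRF with its TCF partners and CREB. Most of their transcripts are short and decay quickly, so a pulse usually fades within hours. In pre-adipocytes this wave opens differentiation, and in mature adipocytes insulin and other ligands still evoke it. Fos and Fosb encode partners of Jun and Junb in the AP-1 transcription factors, Egr1 and Egr2 encode zinc finger transcription factors, Myc encodes a growth regulator, Ier2 and Ier3 encode small early response proteins, and Dusp1 encodes a phosphatase that turns MAP kinases off. The single time point here is late relative to such a pulse.

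Promoter sequence upstream of 4 of the genes is shown because these genes moved most or carry a recognised element of the class. The sequences are from RefSeq on GRCm38.p6, 5′ to 3′ on the strand of the gene, with capitals marking matches to the motifs searched for. Fos, at chr12:85473640-85473889 on the plus strand, had the TATA box TATAAA at -33 to -28 from the start site, 2 matches to the CRE core site TGACG and 1 match to the SP1 site GGGCGG on the other strand.
Fos: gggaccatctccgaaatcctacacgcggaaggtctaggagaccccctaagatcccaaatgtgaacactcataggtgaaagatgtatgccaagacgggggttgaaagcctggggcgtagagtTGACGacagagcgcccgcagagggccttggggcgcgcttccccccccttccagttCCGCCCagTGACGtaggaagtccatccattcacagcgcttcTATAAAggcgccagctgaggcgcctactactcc
Junb, at chr8:84978749-84978998 on the minus strand, had 1 CRE core site and, on the other strand, 1 match to the FOXO site GTAAACA.
Junb: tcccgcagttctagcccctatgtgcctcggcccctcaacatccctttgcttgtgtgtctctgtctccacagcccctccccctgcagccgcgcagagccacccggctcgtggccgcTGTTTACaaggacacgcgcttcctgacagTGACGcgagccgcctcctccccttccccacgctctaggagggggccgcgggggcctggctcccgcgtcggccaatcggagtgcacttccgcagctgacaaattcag
Ier3, at chr17:35821463-35821683 on the plus strand, had 1 SP1 site, and its stretch ends before the first base that GENCODE places in the transcript.
Ier3: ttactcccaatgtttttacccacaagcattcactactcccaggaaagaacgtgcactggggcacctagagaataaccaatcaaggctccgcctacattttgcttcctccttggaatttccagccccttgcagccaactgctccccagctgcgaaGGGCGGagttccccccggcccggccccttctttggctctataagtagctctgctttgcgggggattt
Egr2, at chr10:67537787-67537816 on the plus strand, had a CArG box, the element that SRF binds, at -72 to -63. This is counted from 1 of 5 listed start sites, the one where the longest consensus coding transcript begins, inside the GENCODE span of the gene. Only 30 bases around the box are shown, and a CRE core site at -55 to -51, cut by the end of the stretch, is unmarked.
Egr2: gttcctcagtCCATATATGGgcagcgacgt

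Windows of 250 bases upstream were at hand for 7 of the 10 genes, namely Fos, Fosb, Jun, Junb, Egr2, Ier3 and Dusp1. A CRE core site was present in 5 of the 7, against 17.7% of all 32817 windows of this length, and an SP1 site in 5, against 32.7%. The CArG box of Egr2 is an element of 1.47% of windows, the TATA box of Fos of 12.4% and the FOXO site of Junb of 3.16%. Dusp1 held the only full CRE, TGACGTCA, at -143 to -136, which is present in 1.55% of windows, and Fosb held the only EGR site, GCGGGGGCG, which is present in 2.57%. The full CRE contains the core site on both strands, and the EGR and SP1 sites can overlap. Both strands were searched, and a match describes letters in the window, not binding.

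In these late cultures the members stood at very different levels. Compared per length, as CPM (counts scaled to a common library total after TMM adjustment) per kilobase of exon and as a mean over 8 libraries, Myc was highest at 14.4, which put it at the 77.6 percentile of 14463 genes with a length. Jun (6.54), Ier2 (5.79) and Ier3 (5.27) followed, and neighbours among these 3 overlapped in their ranges over libraries. Dusp1 (2.45), Junb (2.32) and Egr1 (2.09) formed a lower set whose neighbours also overlapped. Fos was below them at 0.822, at the 23.5 percentile, and Egr2 (0.162) and Fosb (0.0622) were lowest, with overlapping ranges. Fos and Fosb thus stood well below Jun, their partner in AP-1.

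**Figure D1:**
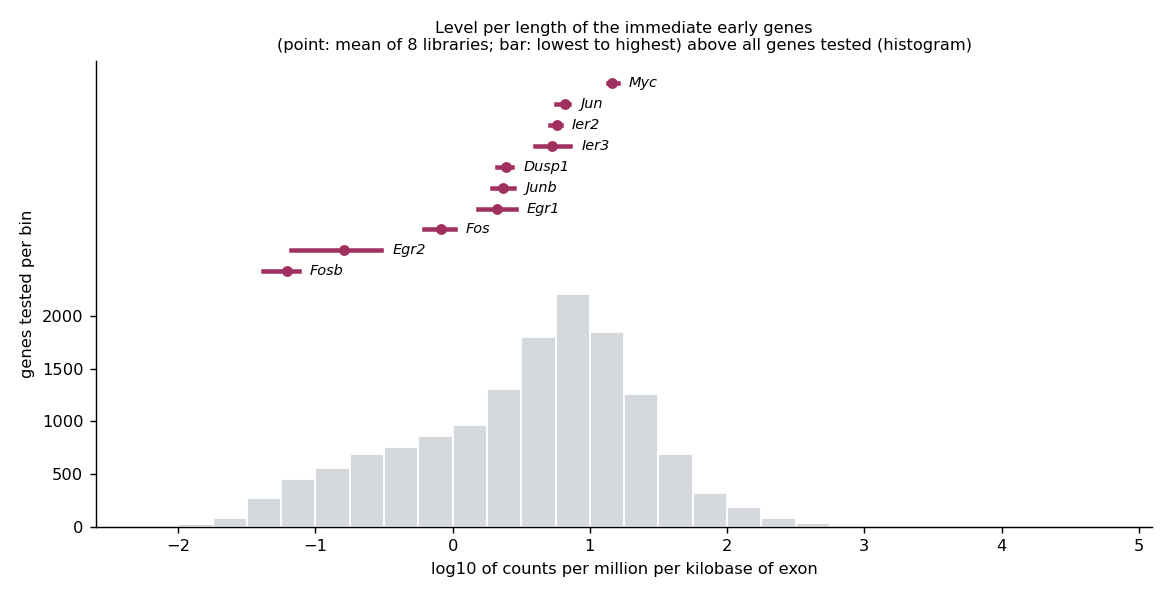
Level of each immediate early gene on a log10 axis of CPM per kilobase of exon, with the mean of 8 libraries as a point and the lowest to highest library as a bar, above a histogram of all tested genes with a length. Myc sits to the right at 14.4 CPM per kilobase and Egr2 and Fosb to the far left at 0.162 and 0.0622.

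Library totals were between 42247091 and 57529803 counts. Egr2 and Fosb rested on as few as 13 counts in a library, and Fos on between 79 and 131. CPM values are scaled by library totals adjusted with TMM over all 8 libraries, and log2 fold changes are the edgeR estimates, also after TMM scaling, with their standard error (SE) and 95% interval. Some exons are shared with a gene on the opposite strand, by 232 bases for Jun (with Junos), 173 for Junb (with Prdx2) and 11 for Dusp1 (with Ergic1). Whether the counting used strand is not given in the sources used here, so reads of these stretches cannot be assigned to one gene.

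**Figure D2:**
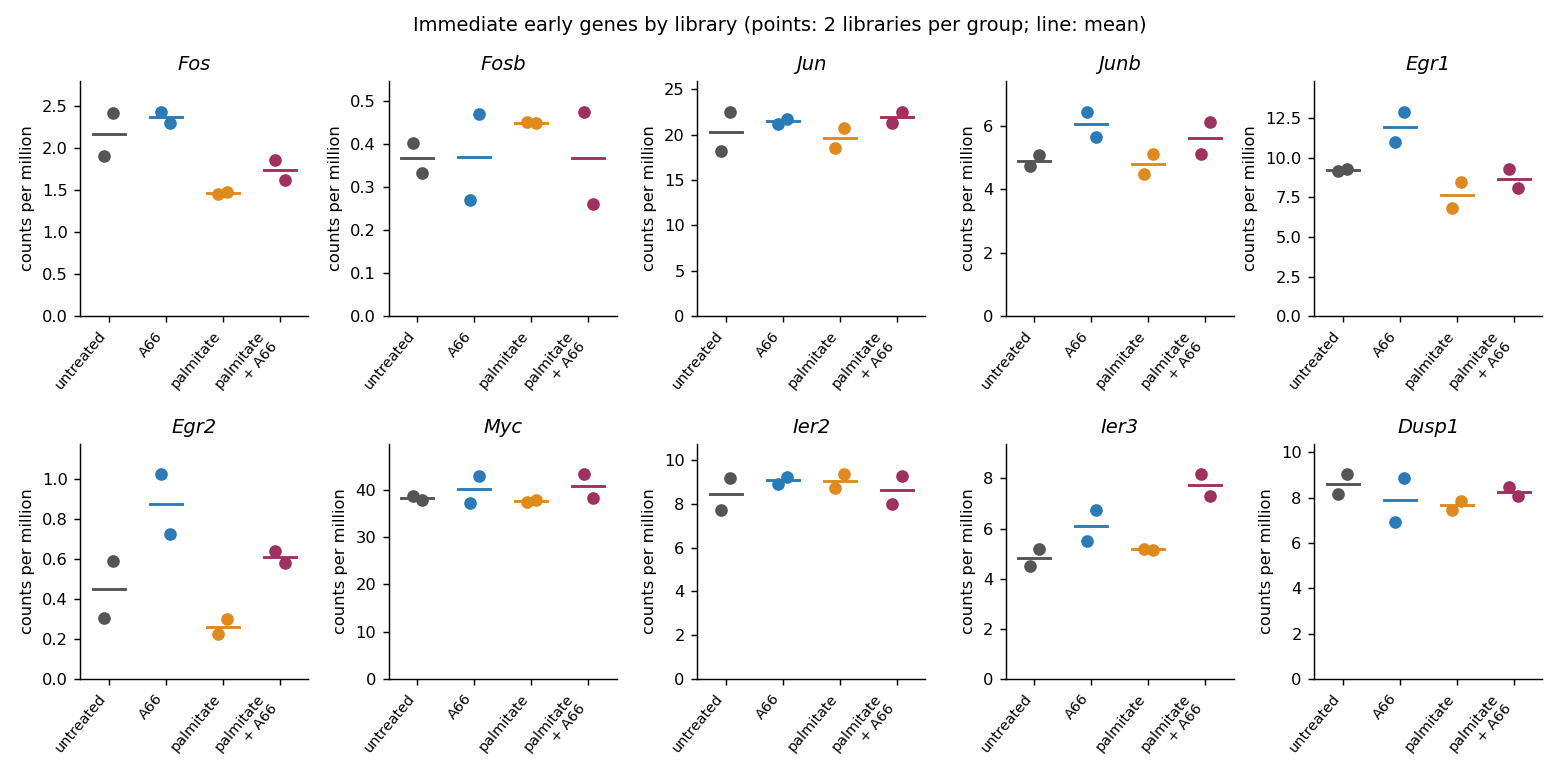
CPM of each of the 10 genes in the 8 libraries, with 1 panel per gene, axes from 0, 2 points per group and a line at the mean. Both libraries with palmitate plus A66 lie at 7.31 and 8.16 CPM for Ier3, above all other libraries, and both A66 libraries lie at 11.01 and 12.9 CPM for Egr1, above all other libraries.

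To ask what blocking p110α did to these genes without added fatty acid, A66 was compared with untreated cells. None of the 10 genes passed an adjusted p of 0.05 in the edgeR quasi-likelihood test with Benjamini-Hochberg adjustment, where 1.84% of the 14158 genes tested did. DESeq2 gave an adjusted p to 3 of the 10 genes and called 0 of them. In DESeq2 1 of the 10 had an unadjusted p under 0.05. In edgeR 4 of the 10 did, all higher with A66 (Egr1, Egr2, Junb and Ier3), where 6.57% of all genes were higher at that level. The same 4 genes did not overlap between the groups, against 20.3% of all genes in that direction. The median log2 fold change of the 10 genes was 0.11, and that of all genes was -0.0011. The members' median was 0.28 without untreated replicate 2 and 0.19 without A66 replicate 1, and 8 of the 10 genes were higher in untreated replicate 2 than in replicate 1 (50% of all genes), with a median gap of 0.22 on the log2 scale regardless of sign.

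Egr1 (ENSMUSG00000038418, chr18:34859823-34864984) came closest to the threshold. It had 9.16 and 9.28 CPM in untreated cells and 11.01 and 12.9 with A66, so both treated cultures lay above both untreated ones. Its log2 fold change was 0.38 (SE 0.10, 95% interval 0.16 to 0.59, adjusted p = 0.0621 with edgeR). The adjusted p was 0.0154 with no filter on low counts, 0.0410 with a correction for transcript length, 0.0384 without untreated replicate 2 and 0.0435 without A66 replicate 1. In the other alternatives Egr1 was not called, with an adjusted p between 0.0506 (replicate block) and 0.547 (without A66 replicate 2), and 0.191 with DESeq2. Egr2 (ENSMUSG00000037868, chr10:67535475-67542188) had 0.306 and 0.592 CPM in untreated cells and 1.02 and 0.725 with A66. That is 13 and 32 counts against 53 and 34, a log2 fold change of 0.93 with a wide 95% interval, 0.07 to 1.79 (adjusted p = 0.324 with edgeR). Junb (ENSMUSG00000052837, chr8:84974484-84978718), the AP-1 subunit that often restrains Jun, had 4.73 and 5.09 CPM in untreated cells and 6.45 and 5.65 with A66, a log2 fold change of 0.30 (SE 0.13, adjusted p = 0.327 with edgeR).

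Palmitate without A66, given with its albumin, was compared with untreated cells. The labels name no group given albumin alone, so effects of the fatty acid and of albumin cannot be told apart, here or below. Again none of the 10 genes passed the threshold in edgeR, where 1.17% of 14587 genes did. DESeq2 gave an adjusted p to 2 of the 10 genes and called 0. In DESeq2 1 of the 10 had an unadjusted p under 0.05. In edgeR Fos and Egr1 were lower at that level, 2 of the 10 genes against 5.6% of all genes. Fos (ENSMUSG00000021250, chr12:85473890-85477273), the defining AP-1 partner, had 1.91 and 2.42 CPM in untreated cells and 1.45 and 1.47 with palmitate, with no overlap. Its log2 fold change was -0.57 (SE 0.21, 95% interval -1.01 to -0.14, adjusted p = 0.229 with edgeR). Egr1 had 6.83 and 8.45 CPM with palmitate, both under the untreated cultures, and a log2 fold change of -0.27 (SE 0.12, adjusted p = 0.343 with edgeR). Egr2 and Dusp1 were also lower without overlap and Fosb was higher without overlap, which made 4 lower and 1 higher, against 20.2% and 20.4% of all genes in those directions.

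**Figure D3:**
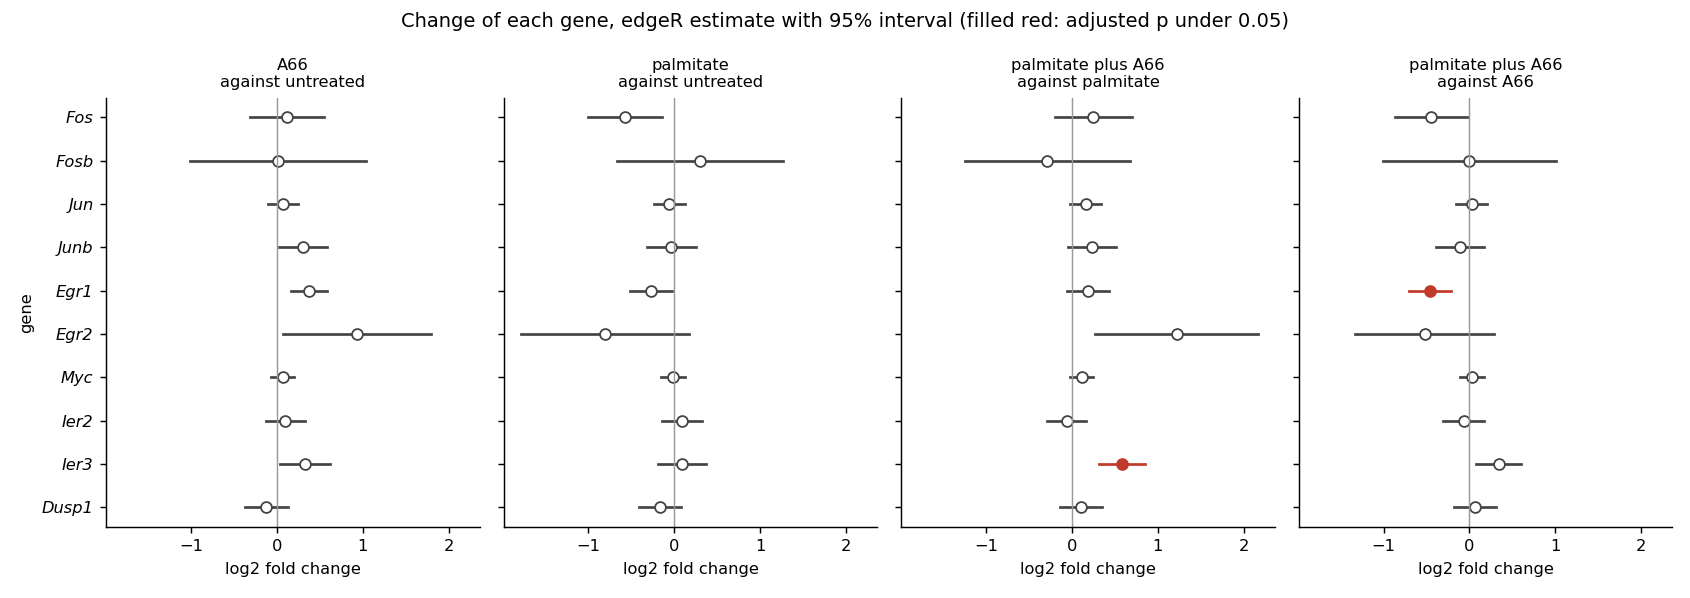
Log2 fold change of each gene in 4 comparisons with its 95% interval, where filled red points passed an adjusted p of 0.05. Only Ier3 in palmitate plus A66 against palmitate (0.58) and Egr1 in palmitate plus A66 against A66 (-0.46) are red, and the intervals of Egr2 and Fosb are the widest.

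Adding A66 to palmitate raised Ier3, 1 of the 10 genes, in edgeR's test, where 2.81% of 14587 genes passed and 0.973% passed as higher. Ier3 (ENSMUSG00000003541, chr17:35821684-35822923) encodes an early response protein linked to cell survival and to ERK signalling. From 5.19 and 5.15 CPM with palmitate it went to 8.16 and 7.31 once A66 was added. Both cultures with the inhibitor lay above both without it, and above every other library of the experiment. The log2 fold change was 0.58 (SE 0.13, 95% interval 0.31 to 0.85, adjusted p = 0.0124 with edgeR). The call was lost without palmitate replicate 1 (adjusted p = 0.0546), without palmitate replicate 2 (0.104) and without palmitate plus A66 replicate 1 (0.138), where the log2 fold change was 0.59, 0.58 and 0.50.

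Most of the other members also lay higher in this comparison, without passing the threshold. In 7 of the 10 genes (Fos, Jun, Junb, Egr2, Ier3, Dusp1 and Myc) both cultures with palmitate plus A66 were above both with palmitate, against 21.9% of all genes in that direction, and in none were they below, against 22.4%. The median log2 fold change of the 10 genes was 0.17, and that of all genes was -0.00079. The members' median ranged from 0.092 without palmitate replicate 1 to 0.25 without palmitate replicate 2, and 8 of the 10 genes were higher in palmitate replicate 2 than in replicate 1 (49.7% of all genes). Egr2 went from 0.225 and 0.298 CPM with palmitate to 0.639 and 0.582 once A66 was added, or 13 and 16 counts against 31 and 29. This was a log2 fold change of 1.22 (95% interval 0.27 to 2.17, adjusted p = 0.171 with edgeR), the largest estimate of the 10 genes. Fos had 1.45 and 1.47 CPM with palmitate and 1.85 and 1.63 with both agents, with a log2 fold change of 0.25 (SE 0.21).

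Compared with A66 alone, palmitate plus A66 lowered Egr1, again 1 of the 10 genes, where 2.73% of 14587 genes passed edgeR's threshold and 1.27% passed as lower. Egr1 had 11.01 and 12.9 CPM with A66 and 9.32 and 8.07 with palmitate plus A66, so the groups were apart. The log2 fold change was -0.46 (SE 0.12, 95% interval -0.70 to -0.22, adjusted p = 0.0315 with edgeR). The call was lost without each of the 4 libraries compared, with an adjusted p of 0.0513 without A66 replicate 1, 0.304 without A66 replicate 2, 0.0547 without palmitate plus A66 replicate 1 and 0.234 without palmitate plus A66 replicate 2, where the log2 fold change was -0.57, -0.34, -0.57 and -0.36 in that order. Fos was lower without overlap, from 2.43 and 2.30 CPM to 1.85 and 1.63, with a log2 fold change of -0.44 (SE 0.21, adjusted p = 0.314 with edgeR). Ier3 was higher without overlap, from 5.48 and 6.76 CPM to 8.16 and 7.31, with a log2 fold change of 0.34 (SE 0.13, adjusted p = 0.187 with edgeR). With Egr2, 3 of the 10 genes were lower without overlap and 1 was higher, against 23.4% and 23.2% of all genes.

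Whether A66 acted differently with and without palmitate was asked with the interaction term. None of the 10 genes passed, and 0 had an unadjusted p under 0.05 (7.92% of all genes did), where 1 of all 14587 genes passed (0.00686%). DESeq2 gave no adjusted p to any of the 10 genes here, and 0 had an unadjusted p under 0.05 in it either. The interaction of Ier3 was 0.25 (95% interval -0.14 to 0.64) and that of Egr1 was -0.18 (95% interval -0.53 to 0.16), both on the log2 scale. These intervals leave room for differences in either direction.

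The effect of each agent was therefore also taken as a mean over both states of the other, a comparison chosen after the data had been seen. Averaged over cells without and with palmitate, A66 raised Ier3 and Egr2, 2 of the 10 genes, where 4.97% of 14587 genes passed in edgeR and 2.17% passed as higher. Ier3 lay between 4.50 and 5.19 CPM in the 4 libraries without A66 and between 5.48 and 8.16 in the 4 with it, with no overlap, and its averaged log2 fold change was 0.46 (SE 0.093, adjusted p = 0.00406 with edgeR). This call held whichever of the 8 libraries was left out. Egr2 lay between 0.225 and 0.592 CPM without A66 and between 0.582 and 1.02 with it, an overlap at the edge, with an averaged log2 fold change of 1.08 (SE 0.31, adjusted p = 0.0393 with edgeR). Its call was lost without untreated replicate 1 (adjusted p = 0.127), A66 replicate 1 (0.180), palmitate replicate 1 (0.108) or 2 (0.0684), or palmitate plus A66 replicate 1 (0.106) or 2 (0.0761), and DESeq2 gave Egr2 no adjusted p. The log2 fold change lay between 0.89 and 1.37 in the 8 fits that left out a library. Egr1 had an averaged log2 fold change of 0.28 (SE 0.083) and lay beside the threshold (adjusted p = 0.0537 with edgeR). It was called with the replicate block (adjusted p = 0.0443), with no filter (0.0117), with the length correction (0.0374) and in 3 of the 8 fits that left out a library, and over all alternatives the adjusted p reached up to 0.239, without A66 replicate 2.

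Averaged over cells without and with A66, palmitate lowered Egr1 and Fos, 2 of the 10 genes, where 5.05% of 14587 genes passed in edgeR and 2.32% passed as lower. Fos lay between 1.91 and 2.43 CPM in the 4 libraries without palmitate and between 1.45 and 1.85 in the 4 with it, with no overlap. Its averaged log2 fold change was -0.51 (SE 0.15, adjusted p = 0.0452 with edgeR), and the call was lost in 7 of the 8 fits that left out a library (adjusted p up to 0.174), being kept only without untreated replicate 1. The log2 fold change lay between -0.59 and -0.41 in all 8 fits. The call was also lost with the replicate block (adjusted p = 0.0524), and DESeq2 gave Fos no adjusted p. Egr1 lay between 9.16 and 12.9 CPM without palmitate and between 6.83 and 9.32 with it. Its averaged log2 fold change was -0.37 (SE 0.083, adjusted p = 0.00942 with edgeR), and the call was lost without A66 replicate 2 (adjusted p = 0.0656) or palmitate replicate 1 (0.0665), where the log2 fold change was -0.31 and -0.29. Egr1 and Egr2 were thus highest with A66 alone and lowest with palmitate alone in group means, whereas Ier3 was highest with both agents.

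The remaining members showed no change past the threshold in any comparison. Myc (ENSMUSG00000022346, chr15:61985391-61990374), the best measured of the 10 genes, lay between 37.1 and 43.2 CPM in all 8 libraries. Its 95% intervals bounded the log2 fold change between -0.063 and 0.20 for A66, between -0.16 and 0.12 for palmitate and between -0.023 and 0.25 for A66 added to palmitate. Jun (ENSMUSG00000052684, chr4:95049034-95052222) lay between 18.2 and 22.5 CPM, and both of these extremes came from the untreated cultures. Its interval for A66 was -0.10 to 0.25. Ier2 (ENSMUSG00000053560, chr8:84661331-84662852) lay between 7.75 and 9.36 CPM and Dusp1 (ENSMUSG00000024190, chr17:26505590-26562128) between 6.93 and 9.03. Fosb (ENSMUSG00000003545, chr7:19302696-19310051) had 13 to 26 counts in a library, and its interval for A66 ran from -1.02 to 1.04.

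The members shared features of gene structure that the choice by name did not use. In the GENCODE M21 annotation, 6 of the 10 had 2 or fewer exons in the longest consensus coding transcript, against 7.02% of 12458 tested genes, and 6 of 10 spanned under 5000 bases, against 10.8%. The pentamer ATTTA, the core of AU-rich elements that mark transcripts for rapid decay, occurred in the 3′ UTR of 9 of 10 genes, against 67.6% of genes. The longer TATTTAT occurred in 5 of 10, against 28.7%. Ier3 carried most, with 5 copies of ATTTA and 4 of TATTTAT in a 3′ UTR of 613 bases, and Ier2 carried none. Fos, Jun and Dusp1 each had 4 copies of ATTTA, Egr2 had 3, and Junb, Egr1 and Myc had 2 each.

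Other immediate early genes were taken from lists of AP-1 subunits and partners, EGR factors and NAB corepressors, transcription factors, effectors, and DUSP phosphatases with ERK feedback inhibitors. Of 88 such genes 78 were tested, and in edgeR 3 were higher and 1 lower with A66 (5.13%), 2 higher and 2 lower with palmitate (5.13%), 6 higher and 1 lower with A66 added to palmitate (8.97%), and 5 higher and 0 lower with palmitate in A66-treated cells (6.41%). Of all genes tested, 1.84%, 1.17%, 2.81% and 2.73% passed in these comparisons. These lists and the further lists below were drawn up with earlier results of these data known, so their shares are not an independent test. DESeq2 gave an adjusted p to 47, 40, 74 and 69 of these genes. It called 1 higher and 1 lower with A66, 2 and 2 with palmitate, 7 and 0 on adding A66 to palmitate and 5 and 1 with palmitate in A66-treated cells. Over all genes it called 122 higher and 84 lower of 8872 with A66 and 111 and 103 of 8592 with palmitate. It called 159 and 272 of 11583 on adding A66 to palmitate, and 227 and 208 of 11155 with palmitate in A66-treated cells. Bhlhe40, which encodes a transcriptional repressor, rose in all 4 comparisons, with log2 fold changes of 0.19, 0.27, 0.18 and 0.26 in that order, of which DESeq2 did not call the first. Its level rose from 66.4 and 71.1 CPM in untreated cultures through 76.5 and 79.9 (A66) and 83.1 and 82.5 (palmitate) to 94.3 and 93.5 (both agents). Per1, a clock gene also induced as an early gene, fell by 0.29 with A66 (adjusted p = 0.00268 with edgeR) and, with palmitate, had a log2 fold change of -0.21 (adjusted p = 0.0477). Nfkbiz, a nuclear regulator of NF-κB, fell with palmitate by 0.29 on the log2 scale.

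Several effectors and partners rose where Ier3 did, on adding A66 to palmitate. Ccn1, which encodes a secreted matrix protein, had 28.3 and 27.0 CPM with palmitate and 43.4 and 38.6 with both agents, a log2 fold change of 0.57 (SE 0.083, adjusted p = 0.000413 with edgeR). Pim1, a serine/threonine kinase gene, had 6.28 and 5.50 CPM against 10.7 and 9.05, a log2 fold change of 0.74 (adjusted p = 0.00102 with edgeR). Dusp4, a nuclear phosphatase of ERK, rose by 0.31 with A66, a change that DESeq2 did not call, and by 0.37 on adding A66 to palmitate, and Zfp36l1, whose product binds AU-rich elements, rose by 0.18 with A66. Atf3, a stress-induced partner of AP-1 proteins, reached 31.4 and 29.3 CPM with both agents, against 25.9 and 20.6 under palmitate alone and 19.1 and 18.8 under A66 alone. It rose by 0.38 over palmitate and by 0.68 over A66 (adjusted p = 0.0309 and 0.000171 with edgeR). Gadd45a, a growth arrest gene, rose with palmitate by 0.22 and in A66-treated cells by 0.33, where Ptgs2, the cyclooxygenase-2 gene, rose by 0.47 and Dusp8, a phosphatase of JNK and p38, by 0.72.

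**Figure D4:**
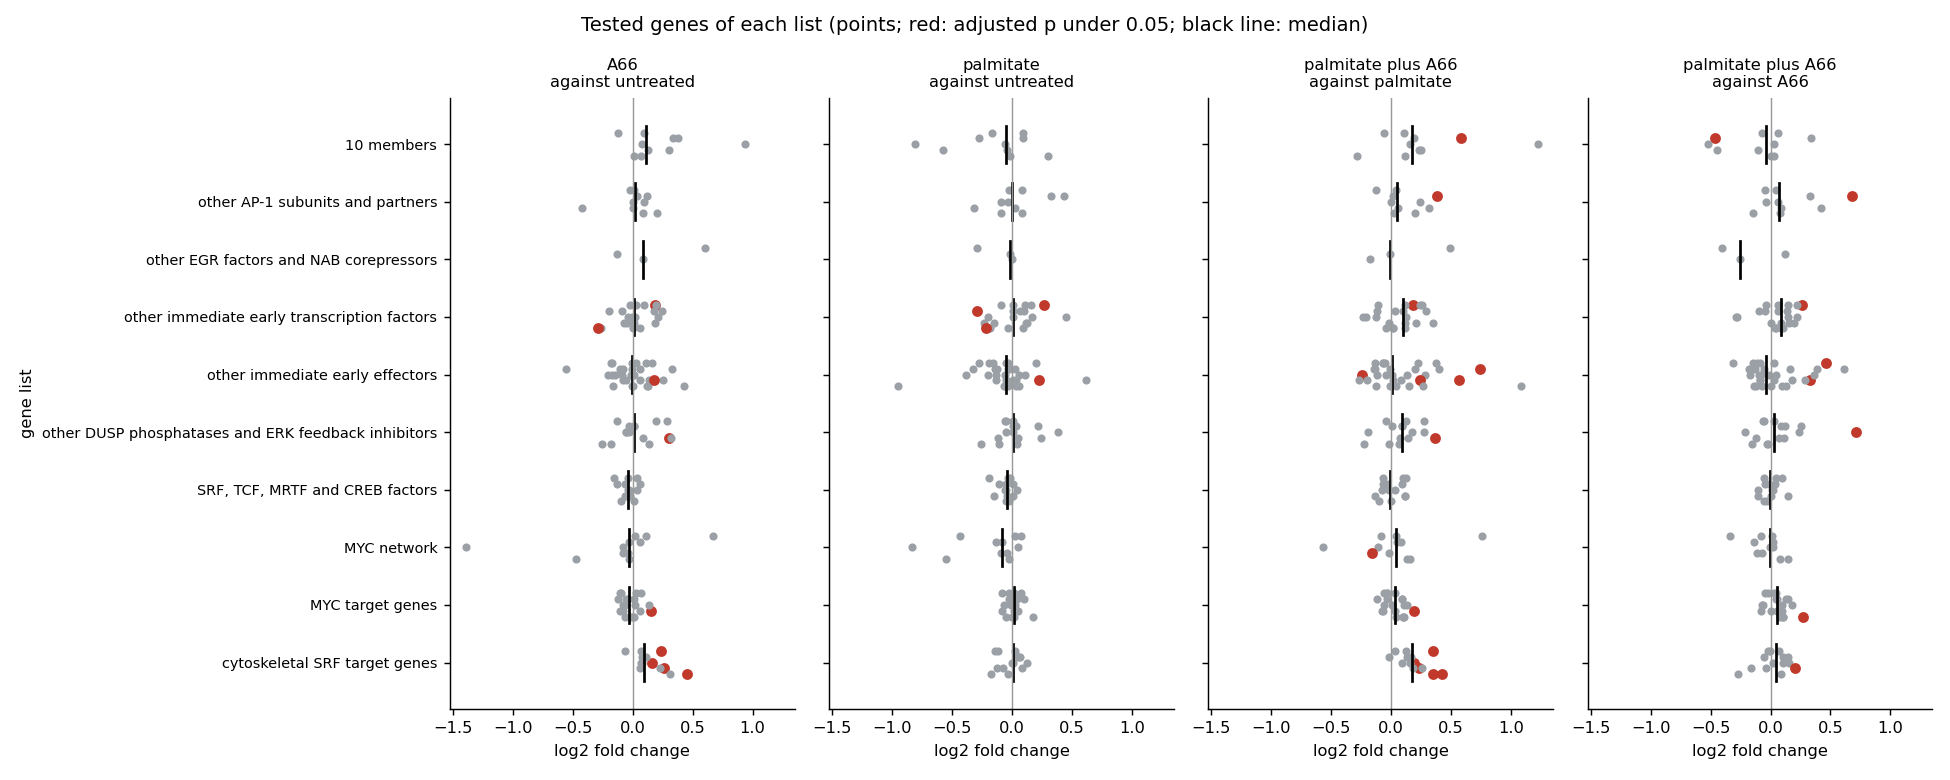
Log2 fold change of every tested gene in each list, in 4 comparisons, with red points past an adjusted p of 0.05 and a black line at the median of the list. In palmitate plus A66 against palmitate the median of the 10 members is 0.17 and that of the cytoskeletal SRF targets is also 0.17, and 5 of those 14 targets are red.

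Factors that act on these genes, and targets of the same factors, were read from further lists. Of 14 tested SRF, TCF, MRTF and CREB factors 0 passed in any of the 4 comparisons in edgeR, with 1 in each at an unadjusted p under 0.05. Of 3 tested EGR factors and NAB corepressors 0 passed in edgeR, with 1, 0, 1 and 2 at an unadjusted p under 0.05. DESeq2 also called 0 of both lists. Of 14 tested targets of SRF in the actin cytoskeleton, 4 were higher with A66, led by Tagln with a log2 fold change of 0.45 and Cnn2 with 0.26, and 5 were higher on adding A66 to palmitate, led by Actg1 with 0.19 and Fhl2 with 0.43, where 1.84% of all genes passed in either direction with A66 and 0.973% passed as higher on adding A66 to palmitate. Tagln and Cnn2 encode actin-binding proteins, Actg1 a cytoplasmic actin and Fhl2 a LIM protein, and none was lower in either comparison. In edgeR 0 passed with palmitate against untreated (2 at an unadjusted p under 0.05), and only Zyx rose, by 0.20, with palmitate in A66-treated cells. DESeq2 called 3, 0, 6 and 2 of these targets higher in the 4 comparisons and none lower. Of 20 MYC target genes only Npm1 rose with A66 (by 0.15) and on adding A66 to palmitate (by 0.19), only Odc1 rose with palmitate in A66-treated cells (by 0.27), and 0 passed with palmitate alone in edgeR. Npm1 encodes a nucleolar protein and Odc1 an enzyme of polyamine synthesis. Of 11 tested genes of the MYC network only Mxd4, a MYC antagonist gene, passed, falling by 0.16 on adding A66 to palmitate. Of 8 genes responsive to insulin and FOXO, 0 passed with A66 in edgeR (2 at an unadjusted p under 0.05), where DESeq2 called 1 lower, and Pik3ip1, a gene for an inhibitor of PI3K, rose by 0.19 on adding A66 to palmitate, where DESeq2 called 0 higher and 1 lower, and by 0.21 with palmitate in A66-treated cells.

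By likeness of log2 CPM, centred on the mean of the 8 libraries, the tested genes nearest to Ier3 were Zfp125 and Ccn1, with root mean square differences of 0.107 and 0.109, where Ier3 itself ranged over 0.85. The genes nearest to Egr1 were 1110020A21Rik and Grk4, at 0.0931 and 0.0959, where Egr1 ranged over 0.92. All of these values are on the log2 scale over 8 libraries.

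Summed adipocyte markers were lower in the groups with palmitate than in those without. The summed level of 10 adipocyte markers was 18027 and 18069 CPM in untreated cells, between 17727 and 18419.9 with A66, between 15978 and 16943 with palmitate and between 15441.5 and 16516 with both, with all 10 detected. Of these, 7 of 10 were lower in edgeR in palmitate plus A66 against A66, where Egr1 was lower, led by Retn (-0.32) and Plin1 (-0.28), and 3 of 10 were lower in palmitate plus A66 against palmitate, where Ier3 was higher. Of all 14587 genes, 185 (1.27%) passed as lower in the first of these comparisons and 268 passed as lower in the second. DESeq2 called 5 and 2 of the 10 adipocyte markers lower in these comparisons. In palmitate against untreated only Lpl, 1 of 10, passed in edgeR, as lower, where 1.17% of all genes passed, and DESeq2 called 1 lower. With palmitate averaged over both A66 states, where Egr1 and Fos were lower, 7 of 10 were lower in edgeR, against 2.32% of all genes. DESeq2 called 5 of the 10 lower there. In bulk RNA, fewer adipocytes and less RNA per adipocyte cannot be told apart. The summed level of 10 pre-adipocyte and fibroblast markers was between 3994 and 4198 CPM in untreated cells and 4179 and 4359 under A66. It was between 4387 and 4586 under palmitate and 4384 and 4416 under both agents, with Dlk1 at 0. Of the 9 tested, 2 passed in edgeR with palmitate, where 1.17% of all genes passed: Postn and Col1a1 rose by 0.32 and 0.25. The same 2 genes fell by 0.36 and 0.33 on adding A66 to palmitate, where 2.81% of all genes passed. Macrophage markers summed to between 5.79 and 6.66 CPM in untreated cells and 5.95 and 6.61 under A66. They summed to between 7.53 and 7.92 under palmitate and 7.79 and 8.79 under both agents, with Adgre1 at 0 in every group. Of the 3 tested, only Cd68 passed in edgeR in palmitate plus A66 against A66, rising by 0.91, where 2.73% of all genes passed. Endothelial markers summed to between 0.980 and 1.77 CPM, with Kdr at 0. The part of these markers in the results for Ier3, Egr1 and Fos was not tested.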

How the data were processed

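Messenger RNA of 8 cultures was selected with oligo-dT and sequenced from TruSeq stranded libraries and paired 100 base reads. Alignment by the authors to GRCm38 used TopHat 2.0.11, and they deposited raw, unnormalized HTSeq counts for each Ensembl gene. The annotation used in counting is not given in the sources used here. The table also holds the authors' DESeq2 output (base mean to adjusted p), which was not used.

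Groups came from the sample labels. Counts were tested in R 4.3.3 with edgeR 4.0.16 (TMM, filterByExpr with its minimum count of 10, two-sided quasi-likelihood tests, Benjamini-Hochberg adjustment over all genes tested). A66 against untreated was fitted on 4 libraries, and the other comparisons on all 8. The biological coefficients of variation were 0.0377 and 0.0406. Of 43629 genes, 42462 matched a symbol in GENCODE M21, which also gave coordinates and lengths. The members and lists were chosen with earlier results of these data known. Named genes were the 10 members, the 2 genes of each list with the smallest p in each comparison among those past the threshold, and the 2 nearest genes to each member called in a planned comparison. Alternatives were RLE scaling, scaling by library size, DESeq2 1.42.0 (Wald test), a filter of at least 10 counts per library or none, another choice of libraries for the fit, a replicate block, an offset for transcript length (loess, span 0.4) and dropping single libraries. Scripts were tested on simulated data. Counts without molecular identifiers give intervals for the spread between cultures, not for molecules. 1 list is not reported here.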

Additional observations from a re-analysis of the deposited data

How the results depend on the processing

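Both planned calls, Ier3 in palmitate plus A66 against palmitate and Egr1 in palmitate plus A66 against A66, were kept under RLE scaling, library size only, DESeq2, no filter, a minimum of 10 counts per library, another choice of libraries for the fit, the length correction and the replicate block. With single libraries left out, between 0 and 1 of the 10 genes were called in A66 against untreated and in each of these 2 comparisons. With A66 averaged over both palmitate states it was between 1 and 2, and with palmitate averaged over both A66 states between 0 and 2. In A66 against untreated, 1 gene, Egr1, was called with no filter and 1 with the length correction. DESeq2 called 1 gene in each averaged comparison, since it gave no adjusted p to Egr2 and Fos. Only 2 cultures a group and the 13 counts of Egr2 and Fosb limit what can be seen.

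With no filter, 459 of all genes were called for A66, 396 for palmitate, 652 for A66 added to palmitate and 664 for palmitate in A66-treated cells, against 261, 171, 410 and 398. The last was 689 with only the libraries compared in the fit. For the interaction, 1 gene was called, against 2 with library size only, 21 with DESeq2, 91 with no filter and 2 with the length correction. With single libraries left out, these counts ranged from 98 to 635, from 71 to 245, from 147 to 494, from 107 to 502 and, for the interaction, from 0 to 10. For the averaged effects they ranged from 412 to 779 with A66 and from 372 to 876 with palmitate. The lowest counts came without A66 replicate 2, palmitate replicate 1, palmitate replicate 2 and A66 replicate 1 for the 4 pairwise comparisons in that order, and without A66 replicate 1 for both averaged effects. Scaling by library size alone moved the share of higher calls from 58.2% to 45.0% for A66, from 53.8% to 44.1% for palmitate, from 34.6% to 23.4% for A66 added to palmitate and from 53.5% to 40.4% for palmitate in A66-treated cells, and from 43.7% to 29.9% and 54.1% to 39.8% for the averaged effects of A66 and palmitate. For palmitate against untreated that share was 78.9% without palmitate replicate 1 and 42% without palmitate replicate 2.

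Each reversal was of a member that had not passed the threshold in the same comparison. Fosb changed sign to -0.0030 with library size only in A66 against untreated, and to 0.0025 with at least 10 counts in every library in palmitate plus A66 against A66. With single libraries left out, the log2 fold change with A66 ranged from -0.030 to 0.32 for Fos, from -0.42 to 0.36 for Fosb, from -0.066 to 0.25 for Jun, from -0.015 to 0.24 for Ier2, from -0.31 to 0.049 for Dusp1 and from -0.036 to 0.17 for Myc. With palmitate it ranged from -0.20 to 0.11 for Jun, from -0.13 to 0.055 for Junb, from -0.024 to 0.22 for Ier2 and from -0.0036 to 0.20 for Ier3. On adding A66 to palmitate it ranged from -0.77 to 0.079 for Fosb and from -0.17 to 0.040 for Ier2. With palmitate in A66-treated cells it ranged from -0.49 to 0.44 for Fosb, from -0.012 to 0.065 for Jun, from -0.25 to 0.016 for Junb, from -0.18 to 0.034 for Ier2, from -0.11 to 0.25 for Dusp1 and from -0.077 to 0.13 for Myc. The cause was not tested.

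The sources name no pairing of replicate numbers between groups, and whether cultures with the same number shared a batch is not known. The correlation of replicate differences lay between -0.147 and 0.153 for the 6 pairs of groups, across 8956 genes. With the replicate block, 282 genes were called for A66, 195 for palmitate, 448 for A66 added to palmitate and 438 for palmitate in A66-treated cells. The block gave 3 genes for the interaction, 3 members (Egr1 beside Ier3 and Egr2) for A66 averaged over both palmitate states and 1 member, Egr1, for palmitate averaged over both A66 states, where Fos had an adjusted p of 0.0524 in edgeR. In the 4 libraries of palmitate plus A66 against A66, the replicate block gave 760 calls (1 member, Egr1). A block with the numbers crossed, a pairing chosen after seeing the data, gave 1371 (2 members, Egr1 lower and Ier3 higher).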
